A study of Ovis aries with 6 samples.

Results

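Integrin and laminin genes were followed in the skin of 2 sheep breeds, the Super Merino, written SM, and the Small Tail Han, written STH. Members were the genes named as an integrin alpha chain (ITGA), an integrin beta chain (ITGB), or a laminin alpha, beta or gamma chain (LAMA, LAMB, LAMC), with nothing after the chain's number or letter. They numbered 38 of the 28394 genes listed, of which 26 were integrins (18 alpha and 8 beta chains) and 12 were laminins (5 alpha, 4 beta and 3 gamma chains). Polyadenylated RNA of shoulder skin was sequenced as 1 library for each of 3 SM ewes, labelled 128, 30034 and 30126, and 3 STH ewes, labelled XW3, XW5 and XW8, and values are given in that order. The labels give every sheep the same age, 9 months, whereas the methods of the study give a younger one. The groups differ by breed, no treatment is named, and each sheep is a separate animal. An SD is therefore the spread between animals, and it also holds differences between their single libraries. The SE of a fold change draws in addition on variance shared across genes. A single biopsy holds all layers of the skin, and in such bulk RNA fewer cells of a type and less RNA per cell cannot be told apart.

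Integrins are cell surface receptors made of an alpha and a beta chain, and they tie the cytoskeleton to the matrix or to other cells. Laminins are trimers of an alpha, a beta and a gamma chain, and they form the sheet of the basement membrane on which epithelium, vessels, muscle and nerve rest. In skin, basal keratinocytes are anchored by hemidesmosomes, where the integrin of ITGA6 and ITGB4 binds an epidermal laminin that holds LAMA3 and LAMB3. The same interface surrounds the hair follicle, whose growth depends on signals across it.

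Total counts were 28870583 to 44645091 in the SM sheep and 29690658 to 41957554 in the STH sheep. Levels are given as CPM, the counts scaled to the library's size. In the 6 libraries 3 counts come to 0.0672 to 0.104 CPM, a floor that covers counting error only. Of the members, 37 had at least 10 counts in at least 3 sheep and were tested with 15320 genes in all. The exception was LAMB4, a beta chain with 1 to 12 counts per sheep. SM sheep 30126 stood apart from the others by exon length, with a slope of -0.17 log2 CPM per doubling of length, against -0.05 and 0.05 in the other SM sheep and 0.02 to 0.10 in the STH sheep. It was also the lowest of the 6 sheep in 17 of the 37 members (45.9%) and in 31.5% of all genes tested. The same sheep was the highest in 4 members (10.8%) and in 33.4% of all genes, so that it was not low in general. In the mapping statistics of the study it also had the fewest unique intron fragments of the 6 sheep. As each sheep gave a single library, a trait of the library cannot be told apart from a trait of the animal. Of the markers looked for, those of basal keratinocytes summed to 6667 to 10646 CPM and those of fibroblasts to 10479 to 15261 CPM. Skeletal muscle markers summed to 25.4 to 41.9 CPM, Schwann cell markers to 23.1 to 54.8 CPM, and PF4, the platelet marker found, was at 0.376 to 1.48 CPM. Adipocyte markers summed to 28.8 to 64.3 CPM in SM and 138 to 172 CPM in STH sheep, most of it FABP4. In contrast, ADIPOQ and PLIN1 overlapped between the breeds.

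Levels of different chains were compared as CPM per kilobase of exon, and each chain as its share of the summed level of its class in the same sheep. The most abundant alpha chain was ITGA6, the laminin receptor chain of hemidesmosomes. Its mean level was 39.3 CPM per kilobase over the 6 sheep, or 29.9% of all integrin alpha chains. ITGAV, which binds matrix proteins through their RGD sequence, followed with 14.4% of the class, ITGA7 with 12% and ITGA3 with 9.62%. Among beta chains ITGB1, the common partner of most matrix-binding alpha chains, held 50.9%, at a mean of 84.6 CPM per kilobase. ITGB5, a partner of ITGAV, held 20.3% and ITGB4 16.1%. The alpha chains known from leukocytes were low, and ITGAD, ITGAL, ITGAM, ITGAX and ITGAE each made up between 0.49% and 1.47% of the alpha class. ITGB2, the beta partner of most of these, held 5.80% of the beta class, the fourth of the 8, at a mean of 9.59 CPM per kilobase.

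**Figure D1:**
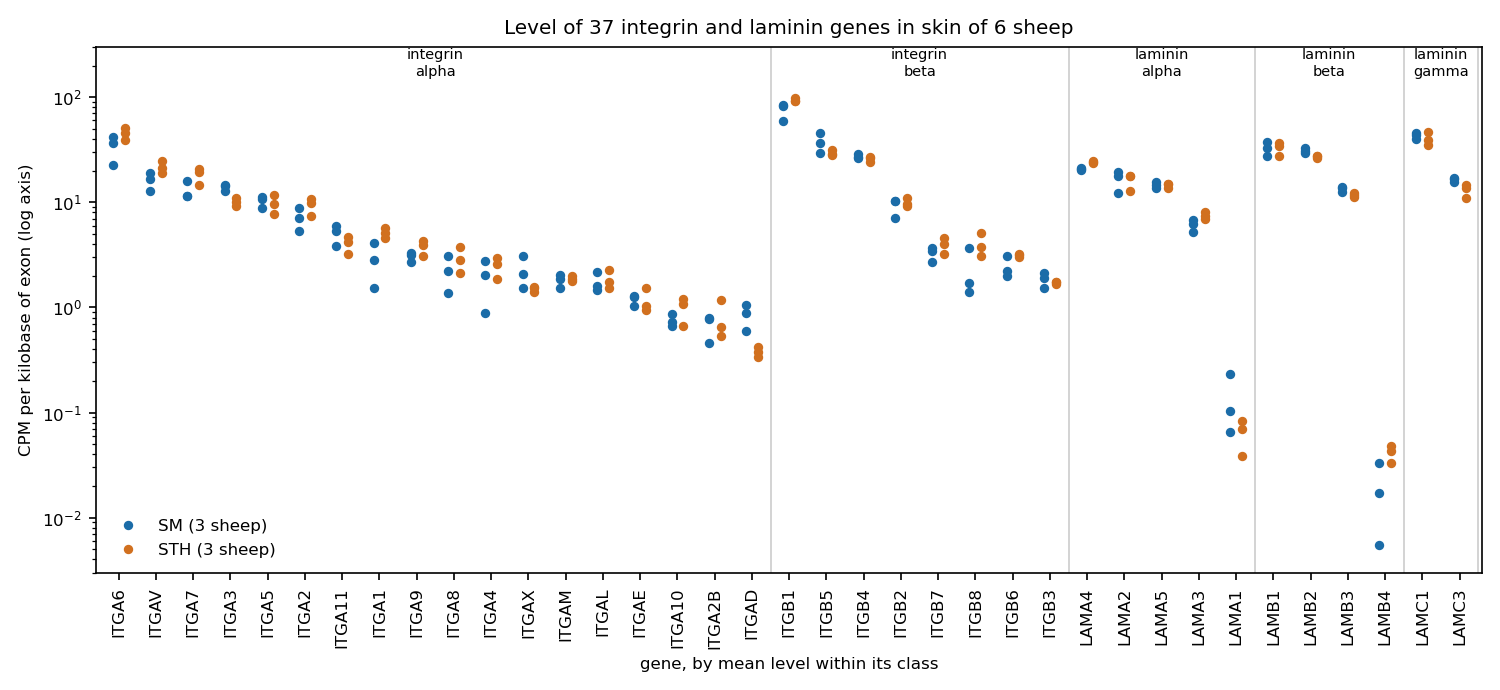
Level of 37 integrin and laminin genes in CPM per kilobase of exon (log axis), 1 point per sheep, SM and STH sheep in different colours, ordered by class. ITGB1 is the highest chain at a mean of 84.6 CPM per kilobase, and LAMB4 and LAMA1 are the lowest of the laminins.

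Of the laminins, the chains of the general basement membrane exceeded the epidermal chains LAMA3 and LAMB3. LAMC1, the gamma chain shared by most laminin trimers, was at a mean of 41.8 CPM per kilobase. LAMB1 held 44.0% of the beta class at 32.9 CPM per kilobase, and LAMB2 held 39.0%. LAMA4, the alpha chain known from vessels and soft tissue, led its class with 37.3% at 22.4 CPM per kilobase. LAMA2, the alpha chain best known from muscle and nerve, held 27.0%, and LAMA5, the broad epithelial and vascular alpha chain, 24.3%. Of the epidermal chains, LAMA3 held 11.2% of the alpha class and LAMB3 16.9% of the beta class. LAMA1, an alpha chain of the early embryo, was at 0.463 to 2.80 CPM, above the floor of 3 counts in every sheep but low. ITGA6, ITGB1 and LAMA4 led their classes in all 6 sheep, with LAMA4 only just ahead of LAMA2 in SM sheep 128, at 33.1% and 30.9%. LAMB1 led in 5, and in SM sheep 30126 it was under LAMB2, at 39.3% and 41.3%.

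**Figure D2:**
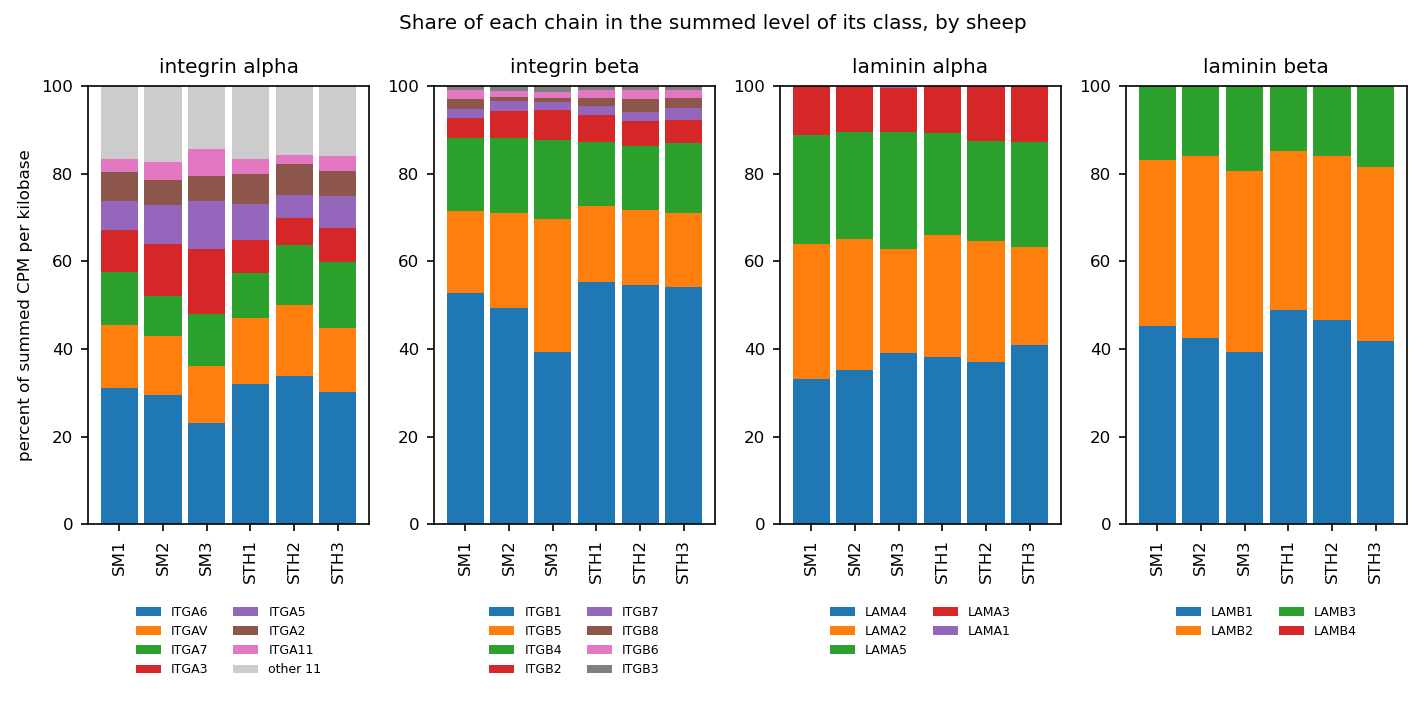
Share of each integrin chain and each alpha or beta laminin chain in the summed level per kilobase of its class, in percent, for each of the 6 sheep, where SM1 to SM3 are sheep 128, 30034 and 30126 and STH1 to STH3 are XW3, XW5 and XW8. ITGB1 holds 39.3% to 55.2% of the beta integrins and LAMB1 39.3% to 48.8% of the beta laminins.

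The breeds were compared to ask whether these chains differ between fine-wooled SM and coarse-wooled STH skin. By edgeR's quasi-likelihood test, 0 of the 37 members tested passed an adjusted p under 0.05 together with a change of over 1.5-fold, where 0 of all 15320 genes tested (0%) passed. By edgeR's likelihood ratio test and by DESeq2, 0 members passed as well, against 2.3% and 2.87% of all genes tested. At an unadjusted p under 0.05, 2 members were higher in SM sheep (ITGA3 and ITGAD), where 7.21% of all genes were, and 4 were higher in STH sheep (ITGA1, ITGA7, ITGAV and ITGB8), where 10.8% of all genes were. Each log2 fold change sets SM over STH, and a negative one marks a higher level in STH skin. Over the 26 integrins its median was -0.24, with 9 above 0 and 17 below. Over the 11 laminins tested its median was 0.01, with 7 above 0 and 4 below. Over all genes tested the median was 0.02, with 51.4% above 0 and 48.6% below. The breeds did not overlap in 9 members. The SM sheep were all higher in 5 of them (ITGA3, ITGAD, LAMB2, LAMB3 and LAMC3), as they were in 12.3% of all genes. The STH sheep were all higher in 4 (ITGA1, ITGB1, LAMA3 and LAMA4), as they were in 13.3% of all genes. Of the 37 members, these are shares near those of all genes.

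Leaving out 1 sheep moved these counts. Without SM sheep 128, ITGA1 and ITGB8 passed both thresholds, both higher in STH sheep, where 7.73% of all genes passed and 6.39% did so in that direction. The members at an unadjusted p under 0.05 were then 5 with SM higher, where 12.7% of all genes were, and 9 with STH higher, where 17.6% were. Without SM sheep 30034 none of the 37 had STH higher at that p, where 6.08% of all genes did, nor without STH sheep XW5, where 4.21% did. Without SM sheep 30126 there was 1 with STH higher, where 6.5% of all genes were, and 4 with SM higher, where 4.84% were. Members without overlap were 10 in each direction without SM sheep 128, where 24.6% of all genes had SM higher and 25.1% STH higher. They were 8 in each direction without STH sheep XW3, where the shares of all genes were 20.4% and 21.5%. Without STH sheep XW8, 9 members had all STH sheep higher, where 19.1% of all genes did.

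**Figure D3:**
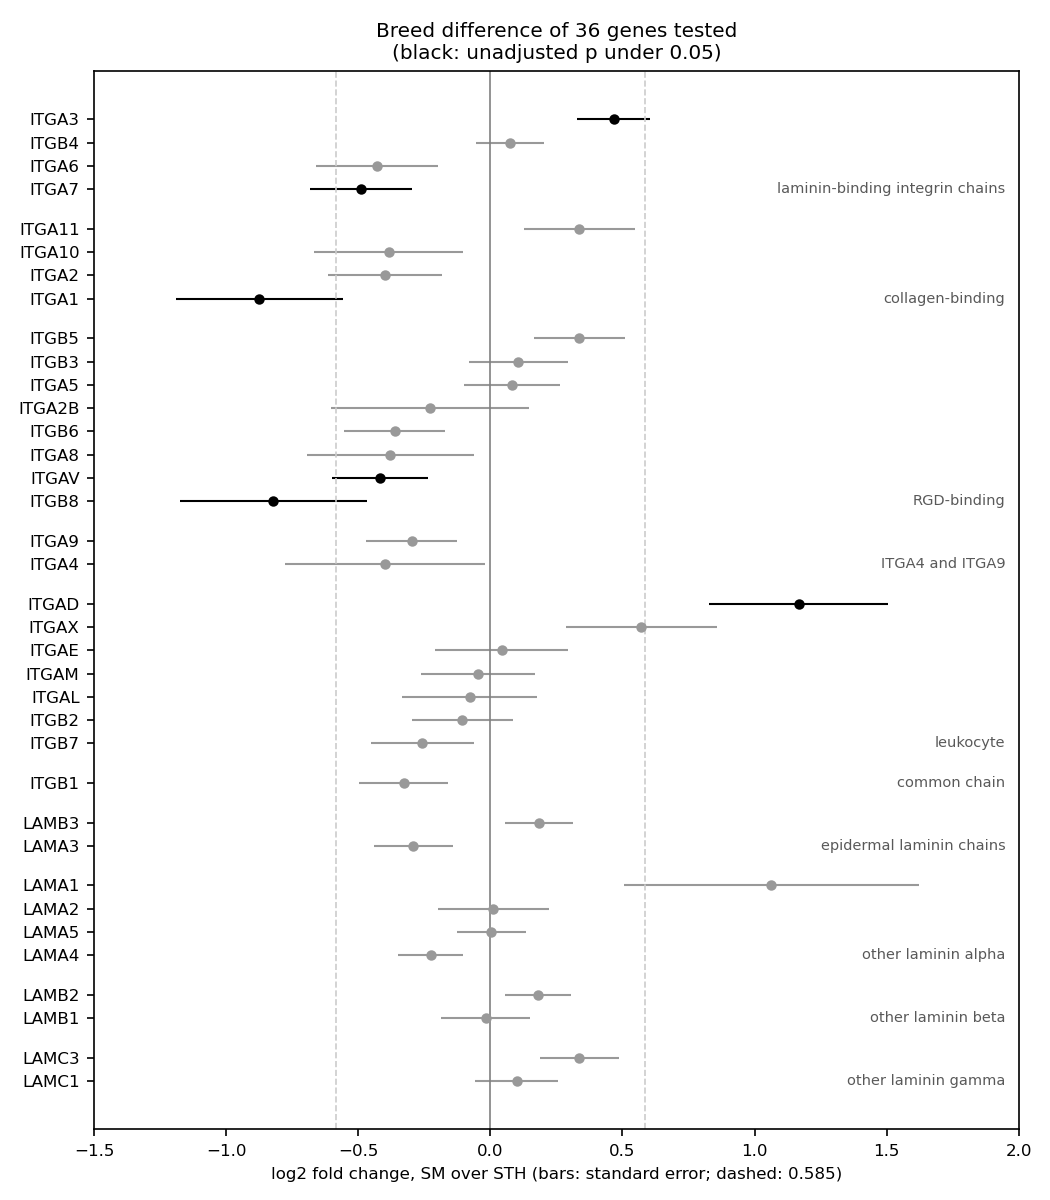
Log2 fold change of SM over STH for 36 members tested, grouped by role, with bars of 1 standard error, members at an unadjusted p under 0.05 in black and dashed lines at a 1.5-fold change. Values run from -0.87 for ITGA1 to 1.17 for ITGAD, and no member passed both thresholds.

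Among the laminin-binding integrin chains, ITGA3 was higher in SM sheep while ITGA6 and ITGA7 had fold changes below 0. ITGA3 pairs with ITGB1 and holds basal keratinocytes to laminin outside hemidesmosomes. It lies on chromosome 11 from 36055570 to 36083199 (Oar_v4.0) and was at 46.2, 52.6 and 52.2 CPM in SM and 39.4, 33.4 and 36.5 CPM in STH sheep. The lowest SM sheep was thus above the highest STH sheep. The means were 50.3 ± 3.61 and 36.4 ± 3.02 CPM (SD, n = 3 each). Its log2 fold change was 0.47 ± 0.14 (SE), with an adjusted p of 0.247 by edgeR's quasi-likelihood test. As a share of the alpha class, ITGA3 was 9.60%, 11.7% and 14.8% in SM and 7.63%, 6.13% and 7.82% in STH sheep, again without overlap. That share rests on the same counts and also depends on the other alpha chains, ITGA6 among them.

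ITGA6 (chromosome 2, 136235926 to 136285245) was at 268, 238 and 145 CPM in SM and 297, 329 and 251 CPM in STH sheep. SM sheep 128 was above STH sheep XW8, and SM sheep 30126 was well below all others. The log2 fold change was -0.43 ± 0.23 (SE, adjusted p = 0.328, edgeR quasi-likelihood), and it was -0.19 without SM sheep 30126. ITGB4, whose long cytoplasmic tail links the hemidesmosome to keratin filaments, was nearly level, at 223, 243 and 230.0 CPM in SM and 224, 207 and 229.7 CPM in STH sheep. The log2 fold change of ITGB4 was 0.08 ± 0.13 (SE, adjusted p = 0.748, edgeR quasi-likelihood). The ratio of ITGA6 to ITGB4 per kilobase was 1.58, 1.29 and 0.828 in SM and 1.74, 2.08 and 1.44 in STH sheep, so that the breeds overlapped only through SM sheep 128. The ratio of ITGA3 to ITGA6 was 0.308, 0.395 and 0.644 in SM and 0.238, 0.182 and 0.260 in STH sheep, without overlap. Ratios of chains were picked with these values known and carry no test. Summed basal keratinocyte markers were 6667 to 8047 CPM in SM and 7777 to 10646 CPM in STH sheep, most of it KRT5. Of the 4 found, 0 had a fold change above 0, and 2 had with the length trend removed. COL17A1 and TP63 were near level, at log2 fold changes of -0.01 and -0.10. The part of these markers in the values of ITGA3, ITGA6 and ITGB4 was not tested.

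ITGA7, the laminin receptor chain of muscle, was at 65.3, 46.7 and 47.2 CPM in SM and 60.1, 84.6 and 78.7 CPM in STH sheep. SM sheep 128 lay above STH sheep XW3, and otherwise the STH sheep were higher. Its log2 fold change was -0.49 ± 0.19 (SE, adjusted p = 0.26, edgeR quasi-likelihood). Smooth muscle markers summed to 1039 to 1249 CPM in SM and 1653 to 2111 CPM in STH sheep. All 5 of them had fold changes below 0, with TAGLN near level at -0.01 on the log2 scale. Skeletal muscle markers overlapped between the breeds, at 25.4 to 39.8 CPM in SM and 34.6 to 41.9 CPM in STH sheep. The 3 found had log2 fold changes from -2.18 for ACTA1 to -0.07 for CKM. The part of these markers in the value of ITGA7 was not tested.

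Of the 4 collagen-binding alpha chains, ITGA1, ITGA2 and ITGA10 had fold changes below 0 and ITGA11 one above 0. ITGA1, a collagen receptor chain of smooth muscle, vessels and fibroblasts, lies beside ITGA2 on chromosome 16 from 26158027 to 26326250. It was at 18.4, 12.6 and 6.83 CPM in SM and 23.1, 25.5 and 20.7 CPM in STH sheep. All SM sheep were below all STH sheep, but the SM sheep differed among themselves, with SM sheep 128 near the lowest STH sheep. The means were 12.6 ± 5.81 and 23.1 ± 2.41 CPM (SD, n = 3 each). Its log2 fold change of -0.87 ± 0.32 (SE) was the lowest of the members, with an adjusted p of 0.255 by edgeR's quasi-likelihood test. Without SM sheep 128 it was -1.25 (adjusted p = 0.0302, edgeR quasi-likelihood), and without SM sheep 30126 it was -0.56. The smooth muscle markers given above all had fold changes below 0, though TAGLN was near level at -0.01 on the log2 scale. By contrast, 5 of the 6 endothelial markers found had fold changes above 0. Of the 5 fibroblast markers, 4 had fold changes below 0 and 1 above, with a median of -0.16. COL1A1 and PDGFRA among them were near 0, at 0.01 and 0.00. The part of these cell types in the value of ITGA1 was not tested. Of the other collagen-binding chains, ITGA2 had a log2 fold change of -0.40, ITGA10 of -0.38 and ITGA11, a collagen receptor chain of fibroblasts, of 0.34. With a sheep left out they ranged from -0.59 to -0.22, from -0.60 to -0.22 and from 0.20 to 0.50.

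Among the chains of the RGD-binding integrins, 3 had fold changes above 0 and 5 below, and the beta partners of ITGAV differed in sign. ITGAV was at 138, 120.2 and 92.4 CPM in SM and 154, 177 and 137 CPM in STH sheep. SM sheep 128 and STH sheep XW8 were level at the edge of the groups. The log2 fold change of ITGAV was -0.42 ± 0.18 (SE, adjusted p = 0.276, edgeR quasi-likelihood), and it was -0.26 without SM sheep 30126. ITGB8, which with ITGAV activates latent TGF-beta, was at 31.4, 14.5 and 12.1 CPM in SM and 26.6, 43.5 and 32.3 CPM in STH sheep. SM sheep 128 lay inside the STH range, and the other SM sheep far below it. Its log2 fold change was -0.82 ± 0.35 (SE, adjusted p = 0.273, edgeR quasi-likelihood), and without SM sheep 128 it was -1.36 (adjusted p = 0.0182, edgeR quasi-likelihood). ITGB6, another TGF-beta activating partner, had a log2 fold change of -0.36, whereas that of ITGB5 was 0.34, and neither passed. Without SM sheep 30126 they were -0.22 and 0.18. ITGB5 overlapped, at 111, 136 and 169 CPM in SM and 117, 107 and 106 CPM in STH sheep. As a share of the beta class ITGB5 was 18.8%, 21.8% and 30.3% in SM and 17.4%, 17.1% and 16.8% in STH sheep, without overlap, a share that also depends on ITGB1. ITGA8, which binds nephronectin, was at -0.38 on the log2 fold change scale and at -0.11 without SM sheep 30126, ITGA2B at -0.23, ITGA5, the fibronectin receptor chain, at 0.08, and ITGB3 at 0.11. ITGA4 and ITGA9, closely related alpha chains that bind cell surface and matrix ligands, were at -0.40 and -0.30. ITGA4 was at -0.04 without SM sheep 30126 and at -0.77 without SM sheep 128, and ITGA9 was at -0.09 with the length trend removed.

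ITGB1 (chromosome 13, 18943110 to 18986458) was at 305, 301 and 214 CPM in SM and 361, 333 and 336 CPM in STH sheep. All STH sheep were above all SM sheep, and SM sheep 30126 was the lowest. On the log2 scale the fold change was -0.33 ± 0.17 (SE, adjusted p = 0.317, edgeR quasi-likelihood). It was -0.17 without SM sheep 30126. ITGB1 made up 47.2% ± 7.02 of the beta class in SM and 54.7% ± 0.482 in STH sheep (SD, n = 3 each).

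**Figure D4:**
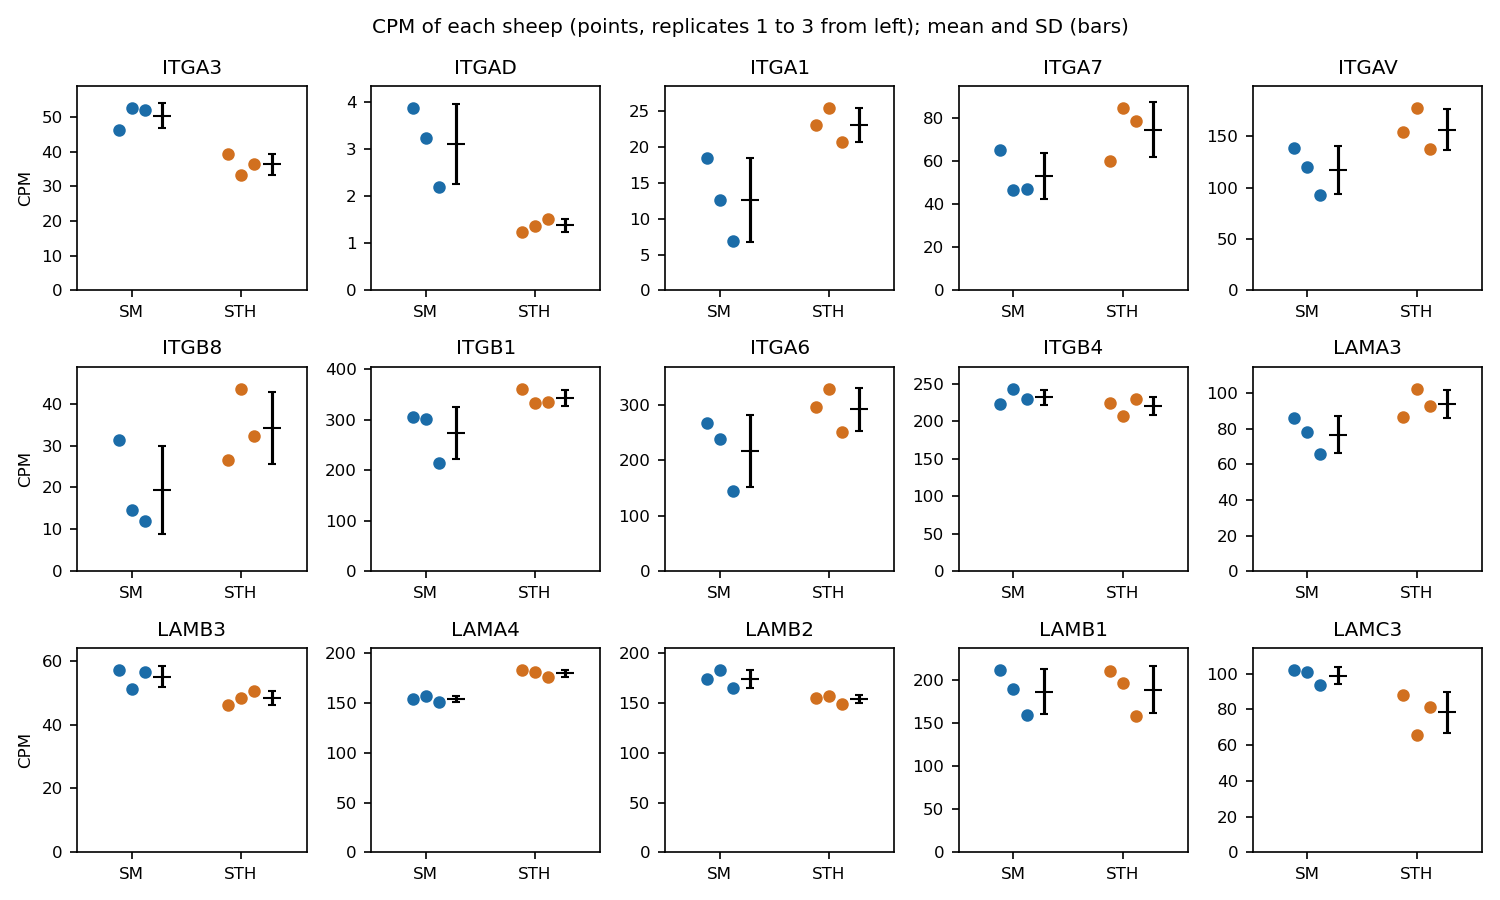
TMM-normalized CPM of members in each sheep, 1 panel per gene, with the mean and SD of each breed beside the points. ITGA3 and ITGAD lie higher in all SM sheep and ITGA1 and ITGB1 higher in all STH sheep, while ITGB8 overlaps through SM sheep 128.

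Of the 7 leukocyte integrin chains, 3 had fold changes above 0 and 4 below, and ITGAD and ITGAX were the farthest from 0. ITGAD, the alpha chain of a macrophage integrin, was at 3.87, 3.23 and 2.19 CPM in SM and 1.23, 1.37 and 1.52 CPM in STH sheep. All SM sheep were above all STH sheep, from 38 to 146 counts per sheep. Its log2 fold change of 1.17 ± 0.34 (SE, adjusted p = 0.247, edgeR quasi-likelihood) was the highest of the members. The gene follows ITGAM and ITGAX on chromosome 24, where the 3 span 27332111 to 27464391, and reads of these related neighbours may have been shared in counting, so that their values are uncertain. ITGAX had a log2 fold change of 0.57, which was 0.26 without SM sheep 30034, and ITGAM of -0.05, and ITGAE, ITGAL, ITGB2 and ITGB7 lay between -0.26 and 0.04. Leukocyte markers summed to 192 to 249 CPM in SM and 182 to 212 CPM in STH sheep, with 6 of 8 above 0 in fold change. On the log2 scale CD3D, CD3E, CD2 and CD79A were at 0.80, 0.61, 0.55 and 0.34. CSF1R, CD14 and CD68 were at 0.28, 0.08 and -0.05, and PTPRC at -0.31. The part of these markers in the value of ITGAD was not tested.

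The epidermal laminin chains LAMA3 and LAMB3 had fold changes of opposite sign, neither at an unadjusted p under 0.05, and that of LAMA3 was -0.01 with the length trend removed. LAMA3 (chromosome 23, 32948575 to 33206169), an alpha chain, was at 86.27, 78.1 and 65.9 CPM in SM and 86.41, 102 and 93.0 CPM in STH sheep. All STH sheep were above all SM sheep, though STH sheep XW3 and SM sheep 128 were nearly equal. That is a log2 fold change of -0.29 ± 0.15 (SE, adjusted p = 0.316, edgeR quasi-likelihood). LAMB3 was higher in every SM sheep, at 57.1, 51.1 and 56.6 CPM against 46.2, 48.2 and 50.6 CPM, with a log2 fold change of 0.18 ± 0.13 (SE, adjusted p = 0.429, edgeR quasi-likelihood). The ratio of LAMA3 to LAMB3 per kilobase was 0.495, 0.50 and 0.381 in SM and 0.612, 0.695 and 0.602 in STH sheep, without overlap. The exons of LAMA3 sum to 12590 bases and those of LAMB3 to 4123.

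Of the other alpha laminins, LAMA4 varied little within a breed. It was at 154, 157 and 151 CPM in SM and 183, 181 and 176 CPM in STH sheep. All STH sheep were above all SM sheep, and the spread within each breed was small, at an SD of 3.0 and 3.61 CPM (n = 3 each). This gave a log2 fold change of -0.23 ± 0.12 (SE, adjusted p = 0.33, edgeR quasi-likelihood). Endothelial markers summed to 541 to 679 CPM in SM and 354 to 572 CPM in STH sheep. Of the 6 found, 5 had fold changes above 0, whereas EMCN was at -0.61 with all STH sheep higher, and their part in the value of LAMA4 was not tested. LAMA2 and LAMA5 were near 0, at log2 fold changes of 0.01 and 0.00. LAMA1 had a log2 fold change of 1.06 that rested on SM sheep 30126 and was 0.42 without it.

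Both common beta laminins were close between the breeds. LAMB1 was at 212, 189 and 159 CPM in SM and 211, 197 and 159 CPM in STH sheep, with a log2 fold change of -0.02 ± 0.17 (SE, adjusted p = 0.96, edgeR quasi-likelihood). LAMB2, a beta chain of vessel, muscle and nerve basement membranes, was at 174, 183 and 165 CPM in SM and 155, 156 and 149 CPM in STH sheep. The breeds did not overlap, and SM skin was higher by a log2 fold change of 0.18 ± 0.13 (SE, adjusted p = 0.424, edgeR quasi-likelihood). The gene is on chromosome 19 from 50841135 to 50853574.

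LAMC1, on chromosome 12, was at 303, 336 and 348 CPM in SM and 357, 298 and 266 CPM in STH sheep, and the groups overlapped. Its log2 fold change was 0.10 ± 0.16 (SE, adjusted p = 0.722, edgeR quasi-likelihood). LAMC3, a gamma chain of vessel and other tissue basement membranes, was at 102, 101 and 93.5 CPM in SM and 88.2, 65.6 and 81.3 CPM in STH sheep. The lowest SM sheep was above the highest STH sheep, and STH sheep XW5 was the lowest of all. The log2 fold change of LAMC3 was 0.34 ± 0.15 (SE, adjusted p = 0.28, edgeR quasi-likelihood).

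Integrin and laminin genes have long exons, with a median of 5712 bases over the 37 tested against 3068 over all genes tested, and the level of long genes differed between sheep. When each sheep's trend on exon length was removed, LAMA3 went from -0.29 to -0.01 and LAMA4 from -0.23 to -0.02 on the log2 fold change scale. LAMB2 went to 0.33, LAMC3 to 0.49 and LAMA1 to 1.47, and the median of the laminins to 0.27. ITGA3 went to 0.53, ITGAD to 1.22, ITGA1 to -0.79 and ITGAV to -0.23. With the trend removed, 0 members passed both thresholds, where 0.0326% of all genes did, and the members at an unadjusted p under 0.05 were 5 with SM higher and 3 with STH higher, where 8.9% and 10.4% of all genes were. The 18 members longer than the median had a median log2 fold change of -0.26 before removal, and the other 19 had one of -0.02.

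**Figure D5:**
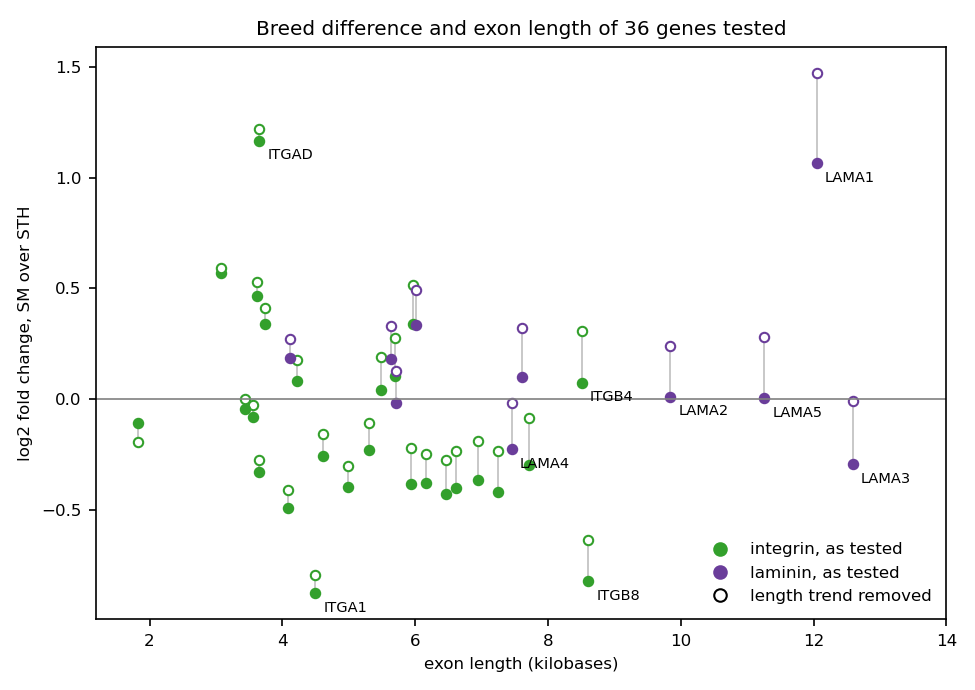
Log2 fold change of SM over STH against exon length in kilobases for 36 members tested, with filled points before and open points after each sheep's length trend was removed. The longest laminin, LAMA3 at 12590 bases, goes from -0.29 to -0.01, while ITGA3 goes from 0.47 to 0.53.

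The ligands, linkers and regulators that work with these receptors were taken as a list of 48 genes, among them other basement membrane proteins, talins, kindlins and the kinases of adhesion sites. Of these, 44 were found and 42 tested. By edgeR's quasi-likelihood test 0 passed both thresholds, where 0 of all 15320 genes tested (0%) passed. Their median log2 fold change was 0.07, with 24 above 0 and 18 below, where 51.4% and 48.6% of all genes were. At an unadjusted p under 0.05, none had SM higher, where 7.21% of all genes did, and 3 had STH higher, where 10.8% did. These were KRIT1, RAP1A and FERMT2, which act on integrins from inside the cell. With the length trend removed, the list had 4 with SM higher and 2 with STH higher at that p, where 8.9% and 10.4% of all genes were, and without SM sheep 128 it had 2 and 5, where 12.7% and 17.6% were. KRIT1, whose product binds an inhibitor of beta integrin activation, had a log2 fold change of -0.77 (adjusted p = 0.247, edgeR quasi-likelihood). Without SM sheep 128 it passed both thresholds at -0.998 (adjusted p = 0.0348, edgeR quasi-likelihood), the only gene of the list to do so. Of all genes, 7.73% passed without that sheep. RAP1A, a small GTPase that switches integrins to their active state, was at -0.44 (adjusted p = 0.247, edgeR quasi-likelihood). Its exons sum to 10777 bases, and it was at -0.18 with the length trend removed, where its unadjusted p was no longer under 0.05. FERMT2, a kindlin that binds beta chain tails, was at -0.49 (adjusted p = 0.256, edgeR quasi-likelihood) and at -0.29 without SM sheep 30126. Their breeds did not overlap. The STH sheep were all higher in 6 of the 42 genes and the SM sheep in 3, where the shares of all genes were 13.3% and 12.3%.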

How the data were processed

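Paired-end reads were mapped by the authors with CLC Genomics Workbench against assembly Oar_v4.0, and 1 table per sheep was deposited. The deposited counts are whole and not normalized, and the kinds of reads they include are not given in the sources used here. The RPKM deposited by the authors served to recover the exon length of each gene, which came out whole within 0.01 base for 100% of 7693 genes checked. The TPM and CPM columns were not used. Breeds were taken from the labels, which name no batch.

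Genes reaching 10 counts in 3 or more sheep were normalized by TMM and compared by the quasi-likelihood test of edgeR 4.0.16 in R 4.3.3, with breed as the only term and Benjamini-Hochberg adjustment over all 15320 genes tested. Genes passed that had an adjusted p under 0.05 and changed by over 1.5-fold in either direction. Standard errors of log2 fold changes were derived from the F statistic, whose variance is moderated across genes, and are not the spread between animals alone. Values per sheep are TMM-normalized CPM.

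The members and all lists were chosen with earlier results of these data known. Values in every sheep are given for members at an unadjusted p under 0.05, members whose breeds do not overlap, the chains of the hemidesmosomal integrin and epidermal laminin, ITGB1 and the highest chain of each class. Partner genes are named at an unadjusted p under 0.05. LAMB4 was not tested, 1 member is counted with the others but its own values are not reported here, and COL4A2, DST, PLEC and SPP1 of the partner list, and the markers KRT14 and CLDN5, were not analysed here. COL17A1 is both a basal keratinocyte marker and a partner gene. Of the 38 identifiers, 37 were in a RefSeq name table of another assembly under the same symbol, all but that of LAMB2, and coordinates are those of the files. The alternatives were DESeq2 1.42.0, the likelihood ratio test, other filters and normalizations, a loess fit on exon length (span 0.5) taken out of each library, and leaving out single sheep. The edgeR and DESeq2 tests of the full set of sheep were first tried on simulated data. The outcome is not reported here, and it is not taken to show that changes as small as those of the members would be found.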

Additional observations from a re-analysis of the deposited data

How the results depend on the processing

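No paired analysis was possible because the labels name individual sheep and pair no SM with an STH sheep. The number of genes past both thresholds went from 0 to 439 with DESeq2, 352 with the likelihood ratio test, 2 with a filter of at least 1 count, 5 with the length trend removed, 2 with the newer quasi-likelihood dispersion, which was chosen after seeing the data, and from 0 to 1175 with a sheep left out, the highest without SM sheep 128. With a sheep left out, members past both thresholds were 0 to 2, members at an unadjusted p under 0.05 were 2 to 5 higher in SM and 0 to 9 higher in STH sheep, and members without overlap were 5 to 10 and 3 to 10. Fewer sheep overlap less by construction, among all genes too. The length trend removed gave 5 members at that p higher in SM sheep, where 8.9% of all genes were, and 2 with all STH sheep above. The members at that p higher in STH sheep were 2 with upper quartile normalization and 2 with at least 50 counts. Shares of all genes were not taken for these settings, nor for the overlap with the trend removed. These counts are therefore not read as a result about the members. The integrin median ranged from -0.33 to -0.0733 with a sheep left out, the latter without SM sheep 30126, the laminin median from -0.0435 to 0.10 and the partner median from 0.00609 to 0.0954, and removing the length trend gave 0.27 for the laminins and 0.16 for the partners. The sign turned for LAMA5 with at least 50 counts (-0.00706) and for LAMB1 with upper quartile normalization (0.0184) and with the length trend removed (0.13). It also turned with a sheep left out for ITGA2B (-0.44 to 0.17), ITGA5 (-0.0530 to 0.24), ITGAE (-0.0898 to 0.28), ITGAL (-0.29 to 0.0921), ITGAM (-0.15 to 0.0834), ITGB2 (-0.21 to 0.0523), LAMA2 (-0.13 to 0.20), LAMA5 (-0.0435 to 0.0596) and LAMB1 (-0.13 to 0.10). The other 27 of the 36 tested members with values given here kept their sign under every alternative run. The cause of these differences was not tested. Depth limits LAMB4, LAMA1 and ITGAD.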
